A study of Mus musculus with 4 samples.

Results

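The miRNAs described here are used as marks of cells other than neurons. They are mmu-miR-219-5p and mmu-miR-338-3p of oligodendrocytes, mmu-miR-21, mmu-miR-214 and mmu-miR-143 of astrocytes or mesenchymal cells, mmu-miR-142-3p of leukocytes and microglia, and mmu-miR-451 and mmu-miR-144 of erythroid cells, written below without the mouse prefix. The 8 were chosen by name from the array design, with earlier results of these data known. Each was the single probe that carried that mouse name, out of 1030 mouse miRNA probes. They were measured in untreated primary cortical neurons from E15 Swiss Albino mouse embryos, grown in Neurobasal medium with B27 and harvested on Day 2, Day 4, Day 6 or Day 8 of culture. RNA of separate experiments was pooled for each day and run on 1 array, so there were 4 arrays and no replicate arrays. Each ± below is an SD over the 4 spots of a probe, a technical error that leaves out how cultures differ. Since each day had an array of its own, array and day cannot be told apart, and Days 4, 6 and 8 all share the Day 2 array as their reference. In RNA of a whole culture, fewer cells of a type and less RNA per cell cannot be told apart either.

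A miRNA is a short RNA that guides an Argonaute protein to messenger RNAs, mainly by pairing through its seed, the bases 2 to 8 from the 5′ end. Some miRNAs are made almost only in 1 lineage and serve as its marks in mixed tissue. A signal of a miRNA used as a mark does not by itself show that cells of its lineage were present. miR-219 and miR-338 are induced as oligodendrocyte precursors differentiate, and they repress genes that hold these cells in the precursor state. miR-21 is widely expressed and rises in reactive astrocytes and in fibroblasts. miR-214 is made from an antisense transcript of the Dnm3 gene in mesenchymal cells, and miR-143 is abundant in smooth muscle and fibroblasts. miR-142 is made across the blood lineages and, in brain, in microglia. miR-144 and miR-451 are cut from 1 primary transcript that the factor GATA1 drives in red cell precursors, and miR-451 is abundant in mature red cells. The cultures were prepared as neurons, so the comparison asks how far these miRNAs stood above the background of each array and whether they moved with the day.

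The mature sequences of 7 of the 8 are shown because the array reads these strands, written from RefSeq on mouse build GRCm38.p6 with the seed in capitals. The 7 seeds all differ, so that none of these miRNAs shares its seed with another of them. Among the other mature mouse miRNAs of the RefSeq table, miR-761 has the seed of miR-214 and miR-21c that of miR-21, and none has the seed of the other five.
miR-219-5p: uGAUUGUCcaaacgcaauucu
miR-338-3p: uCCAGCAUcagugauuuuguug
miR-21: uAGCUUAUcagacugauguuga
miR-214: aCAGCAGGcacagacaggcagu
miR-142-3p: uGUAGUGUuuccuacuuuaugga
miR-451: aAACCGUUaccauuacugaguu
miR-144: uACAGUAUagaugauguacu

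On that build miR-219-5p lies at chr17:34025052-34025072 and again, with the same sequence, at chr2:29845689-29845709, where its precursor overlaps the span of Cercam. The probe cannot tell these copies apart. miR-338-3p lies at chr11:120014781-120014802 where its precursor overlaps the span of Aatk, and miR-21 at chr11:86584120-86584141, where it overlaps that of Vmp1, all on the minus strand. miR-214 lies on the plus strand at chr1:162223438-162223459, where the spans of Dnm3 and Dnm3os overlap. miR-142-3p lies at chr11:87756903-87756925 on the plus strand. miR-144 at chr11:78073047-78073066 and miR-451 at chr11:78073186-78073207 lie on the plus strand with 99 bases between their precursors. These precursors are shown because the position of the mature miRNA, in capitals, differs between them.
Mir144: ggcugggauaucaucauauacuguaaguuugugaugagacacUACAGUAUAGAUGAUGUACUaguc
Mir451a: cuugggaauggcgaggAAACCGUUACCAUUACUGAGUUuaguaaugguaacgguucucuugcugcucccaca
Mature miR-144 took bases 43 to 62 of its 66-base precursor, in the 3′ arm, while miR-451 took bases 17 to 38 of 72. miR-451 is known to be matured by Argonaute 2 without Dicer.

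The background was read from 7 negative control probes with 28 spots per array. Their signals were mean foreground minus local background in the green channel of the dye, in scanner units. They ran from -92.8 to 139 on Day 2, from -53.5 to 123 on Day 4, from -21.2 to 93.9 on Day 6 and from -14.3 to 117 on Day 8. The median mouse probe read 137, 164, 118 and 144 on Days 2, 4, 6 and 8, above that range on all but Day 2. Standing above the negative control probes was thus common among mouse probes. The threshold of 300 was taken from the study's methods, and a miRNA was counted here as detected once any array reached it, a choice not stated there. By this count 6 of the 8 were detected, as against 419 (40.7%) of all mouse miRNA probes. miR-338-3p and miR-214 reached 300 on all 4 arrays, and miR-143 and miR-144 on none. No spot of the 8 was saturated. The 4 arrays detected between 339 and 401 mouse miRNAs, the fewest on Day 6, when the mean signal of all mouse probes was also lowest (1275, against 1524 to 1653 on the other days).

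**Figure D1:**
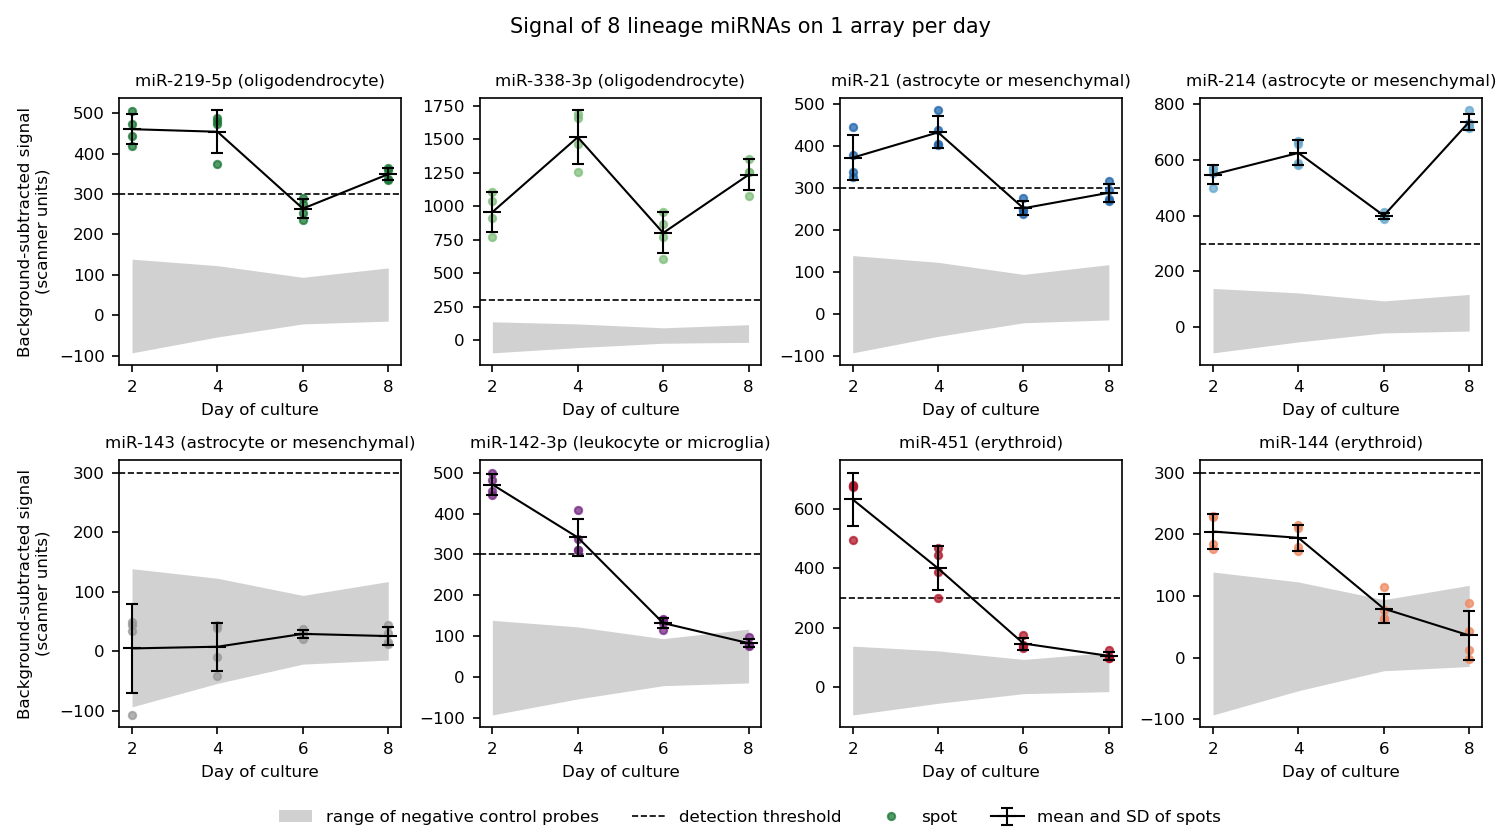
Background-subtracted signal (scanner units, linear axis) of the 8 miRNAs against the day of culture. Colored points are the 4 spots of a probe, black marks the mean and SD of spots, the grey band the range of the 7 negative control probes, and the dashed line the threshold of 300. miR-142-3p, miR-451 and miR-144 reach the grey band by Day 8, miR-143 lies in it on every day, and the other 4 stay above it.

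Of the 8, miR-142-3p and miR-451 fell over the days by the trend test given below. Both entered that test only through Days 2 and 4, when they were bright, and were chosen with earlier results of these data known. Neither call held without the Day 8 array or on the deposited value table, where 0 of all 419 tested miRNAs were called. miR-142-3p had signals of 471 ± 24.8 on Day 2, 342 ± 45.9 on Day 4, 132 ± 12.2 on Day 6 and 82.9 ± 9.58 on Day 8 (SD, n = 4 spots). All 4 spots lay above the highest negative control spot on Days 2 and 4, 2 did so on Day 6 and 0 on Day 8, when the probe was also below the highest negative control probe. After normalization between arrays it stood 0.51 ± 0.14 log2 units under Day 2 on Day 4, or a signal log ratio (SLR) of -0.51. On Day 6 the SLR reached -1.04 ± 0.10, and by Day 8 it had reached -1.52 ± 0.08. The spots of none of these days overlapped with those of Day 2, and each step from 1 day to the next was also downward without overlap (-0.51, -0.53 and -0.48). The probe was under 300 on the later arrays, so the size of the Day 6 and Day 8 SLR was not measured, and only a bound holds. Set against the dimmest level measured reliably on the later array, the Day 2 level was at least 1.12-fold higher than that of Day 6 and at least 1.46-fold higher than that of Day 8.

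miR-451 had signals of 632 ± 90.7, 400 ± 74.3, 147 ± 20.2 and 106 ± 13.2 on Days 2, 4, 6 and 8. Its spots were ordered like those of miR-142-3p, with all 4 above the negative control spots on Days 2 and 4, 3 on Day 6 and 0 on Day 8. One Day 2 spot, of 496 against 680 for the highest, had a local background of 257, where the median spot of that array had 84. Against Day 2 its SLR came to -0.67 ± 0.26 (Day 4), -1.26 ± 0.21 (Day 6) and -1.70 ± 0.19 (Day 8), and the bound on the fold was at least 1.40-fold lower for Day 6 and at least 1.81-fold lower for Day 8. No spot of a later day reached the lowest of Day 2.

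miR-144, which comes from the same transcript as miR-451, stayed under 300 on every array and was therefore not among the miRNAs tested. Its signals were 204 ± 28.1, 194 ± 21.5, 79.4 ± 24.0 and 36.0 ± 40.0 on Days 2, 4, 6 and 8. The probe exceeded the highest negative control probe on both early days and neither late one. On Day 2 only 2 of its 4 spots lay above the highest negative control spot, and on Day 4 all 4 did. Its signal stayed under the mean plus 3 SD of the negative control spots on all days (349 on Day 2 and 213 on Day 4). On Day 8 the scanner software had marked 2 of its 4 spots as not found. The SLR was -0.17 ± 0.16 on Day 4, with overlapping spots, then -0.63 ± 0.24 on Day 6 and -1.09 ± 0.38 on Day 8, both without overlap. The difference between miR-144 and miR-451 was not tested. The signals of Days 6 and 8 were within the background, so these SLRs have no measured size and no fold is given.

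**Figure D2:**
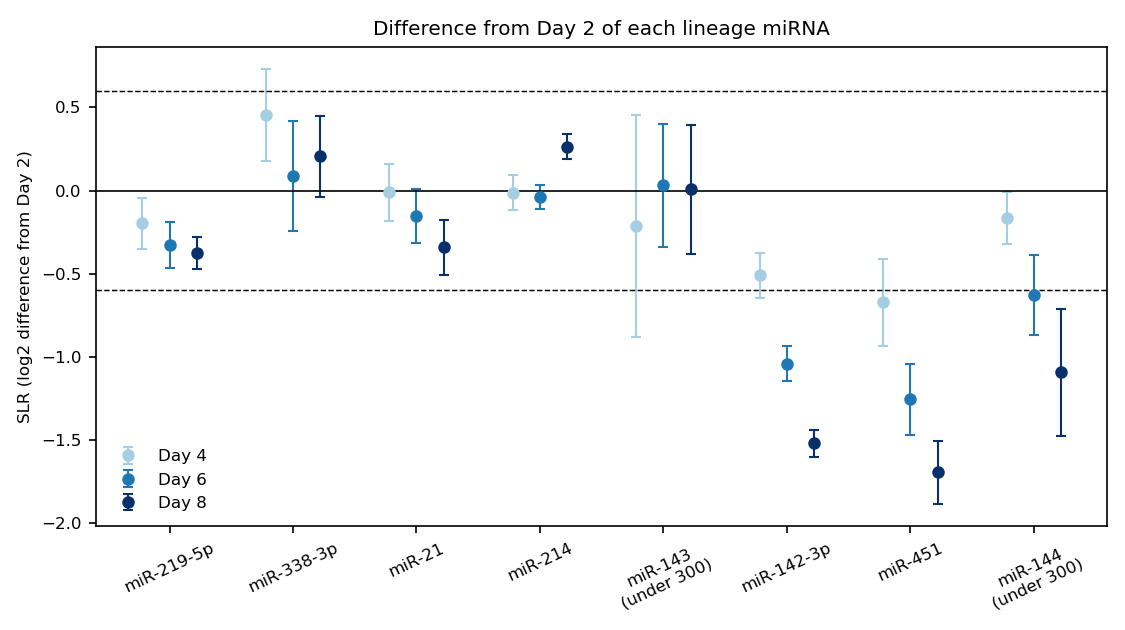
SLR (log2 difference from Day 2) of the 8 miRNAs on Days 4, 6 and 8, with bars for the root of the summed squared spot SDs of both arrays and dashed lines at 0.6 and -0.6. miR-142-3p and miR-451 step down on each day to -1.52 and -1.70, whereas miR-219-5p, miR-338-3p, miR-21 and miR-214 stay between -0.38 and 0.45. miR-142-3p and miR-451 were under 300 on Days 6 and 8, so the size of their values there was not measured.

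The oligodendrocyte pair stayed above the background on all days. For miR-338-3p the signals were 957 ± 149, 1515 ± 200, 801 ± 153 and 1234 ± 115 on Days 2, 4, 6 and 8, against at most 139 for a negative control probe. It was higher on Day 4 than on Day 2 without overlap of the spots (SLR 0.45 ± 0.28), and its spots overlapped with Day 2 on Day 6 (0.09 ± 0.33) and Day 8 (0.21 ± 0.24). These differences did not pass 0.6.

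miR-219-5p had signals of 460 ± 37.3, 454 ± 52.7, 264 ± 23.9 and 349 ± 14.4, with all spots above the negative control spots on every array. It was under 300 on Day 6 alone. Relative to Day 2 it read -0.20 ± 0.16 (Day 4), -0.33 ± 0.14 (Day 6, at least 1.10-fold lower) and -0.38 ± 0.10 (Day 8), in each case without overlap of the spots and short of 0.6. On Day 8 miR-219-5p was thus lower and miR-338-3p slightly higher than on Day 2, the former by more than its spot SD and the latter by less.

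Among the astrocyte or mesenchymal miRNAs, miR-21 had signals of 372 ± 53.0, 432 ± 38.3, 251 ± 16.2 and 288 ± 21.9, so that it passed 300 on Days 2 and 4 and lay above all negative control spots on the other days too. Its SLR was -0.01 ± 0.17 on Day 4 and -0.15 ± 0.16 on Day 6, both with overlapping spots. On Day 8 it was -0.34 ± 0.16 without overlap, or at least 1.22-fold lower.

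For miR-214, the sign on Day 8 was opposite to that of miR-21. Its signals were 548 ± 34.0, 626 ± 45.0, 401 ± 10.5 and 738 ± 28.1. The SLR was -0.01 ± 0.11 on Day 4 and -0.04 ± 0.07 on Day 6, which did not exceed the spot SD, and 0.26 ± 0.08 on Day 8 without overlap of the spots. The Day 8 value depended on the scaling, being -0.01 with no normalization between arrays and 0.43 in the deposited value table, and 1 Day 2 spot had a local background of 425.

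miR-143 could not be told from the background at any time. Its signals of 5.12 ± 74.6, 7.95 ± 40.5, 29.5 ± 6.95 and 25.8 ± 14.5 were all below the highest negative control probe of their array, with 0 of 16 spots above the highest negative control spot. The software had marked 11 of these 16 spots as not found. One Day 2 spot read -106 over a local background of 246. A level below this background was not measurable, so that an absence of the miRNA was not shown.

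The SLR counts were set beside the whole array as a description, since the members were chosen with earlier results of these data known. On Day 4, 1 of the 6 detected members, miR-451, was lower by more than 0.6, where 1.91% of the 419 detected mouse miRNAs were, and 0 were higher, where 7.16% were. On Day 6, 2 of 6 were lower (miR-142-3p and miR-451), against 4.53% of all detected, and 0 higher, against 9.79%. On Day 8 the same 2 were lower, against 11.2%, and 0 higher, against 10.7%. Both probes were under 300 on Days 6 and 8 and passed the detection filter only through Days 2 and 4. Their SLRs on Days 6 and 8 have no measured size. The counts of lower members on those days thus rest on SLRs as computed, and not on the bounds given above. On Day 4, when both probes were above 300 on both arrays, miR-451 stood 5th and miR-142-3p 13th of the 419 from the lowest SLR. No rank is given for Days 6 and 8, when they were dim. The spots of 4, 3 and 5 of the 6 did not overlap with Day 2 on Days 4, 6 and 8, which held for 41.5%, 44.2% and 66.1% of all detected miRNAs. The median SLR of the 6 was -0.10, -0.24 and -0.36, against -0.01, -0.01 and -0.03 over all 419.

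**Figure D3:**
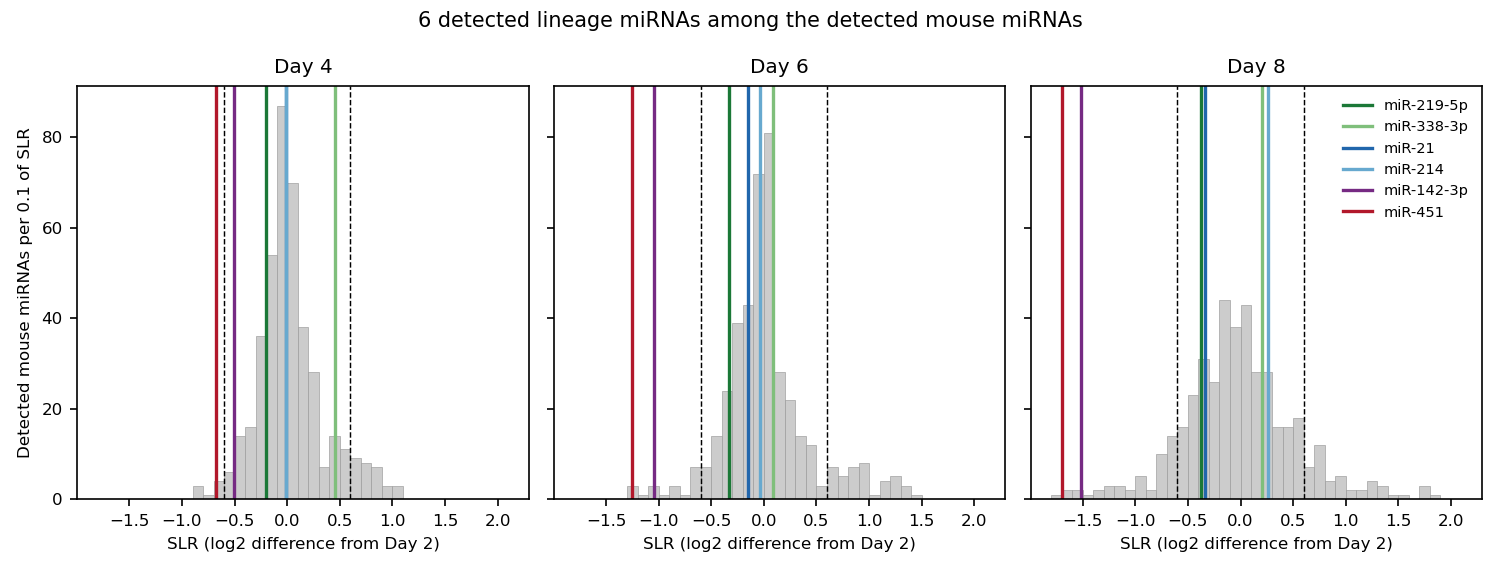
Number of detected mouse miRNAs (419 in each panel) per 0.1 of SLR on Days 4, 6 and 8, with dashed lines at 0.6 and -0.6 and colored lines at the 6 detected lineage miRNAs. miR-451 and miR-142-3p sit in the lower tail, with no measured size on Days 6 and 8, when they were under 300, and the other 4 lie within the bulk.

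Loss of detection was counted on signals not scaled between arrays, so the count moves with the brightness of each array, which was lowest on Day 6. Of the 6 members at 300 or more on Day 2, 3 were under 300 on both Day 6 and Day 8 (miR-142-3p, miR-451 and miR-21). This held for 17 of all 369 mouse miRNAs detected on Day 2 (4.61%). The count is a description, since the 6 were all bright enough on Day 2 to be counted. For miR-21 these signals were 251 and 288, and the probe stayed above every negative control spot.

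A straight line over the days was fitted with limma to all 419 detected miRNAs, with Benjamini-Hochberg adjustment. By this test 2 of the 6 detected members fell, where 40 of the 419 (9.55%) fell, and 0 rose, where 15 (3.58%) did. miR-451 fell by 0.28 log2 units per day (SE 0.02, adjusted p = 0.00612) and miR-142-3p by 0.25 (SE 0.02, adjusted p = 0.00612). The size of both slopes rests in part on the dim signals of Days 6 and 8. The slopes of miR-219-5p (-0.06, SE 0.02, adjusted p = 0.0879), miR-21 (-0.06, SE 0.02, adjusted p = 0.106), miR-214 (0.04, SE 0.02, adjusted p = 0.325) and miR-338-3p (0.01, SE 0.04, adjusted p = 0.837) did not pass. Both called members passed the filter only through Days 2 and 4, when they were bright. When all 1030 mouse probes were tested with no filter, both remained (adjusted p = 0.00433), miR-144 passed as well, though within the background on Days 6 and 8 (slope -0.19, SE 0.03, adjusted p = 0.015), and miR-143 did not pass (0.01, adjusted p = 0.843). Only 4 arrays enter this fit, and it called 0 of all 419 without the Day 8 array and 0 on the deposited value table. Without the Day 8 array neither call held (adjusted p = 0.12, slopes -0.26 and -0.31), and on the deposited value table neither did (adjusted p = 0.246), in a range from 2.01e-08 to 0.246 over the alternatives.

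The opposite strands of the same precursors were also on the array. miR-21* had signals of 1738, 1658, 1623 and 2858, and its SLR of 0.55 ± 0.06 on Day 8 was opposite in sign to that of miR-21 (-0.34 ± 0.16). The spots of both strands were without overlap between Day 8 and Day 2, but the trend of miR-21* did not pass (adjusted p = 0.0957), and the difference between the strands was not tested. miR-142-5p, whose signals were 86.5, 69.4, 42.7 and 19.9, never rose above the highest negative control probe. A probe at background on every day gives no direction, so it tells nothing of miR-142-3p.

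Other partner strands were dim. miR-338-5p, with signals between 216 and 298, and miR-214*, with signals between 181 and 245, lay above the negative control probes on all 4 days and under 300. Their Day 8 SLR was -0.23 ± 0.17 for miR-338-5p and -0.25 ± 0.21 for miR-214*, both with overlapping spots. miR-219-3p, miR-143* and miR-144* did not exceed the highest negative control probe on any day, and a probe for miR-451* was not used here.

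**Figure D4:**
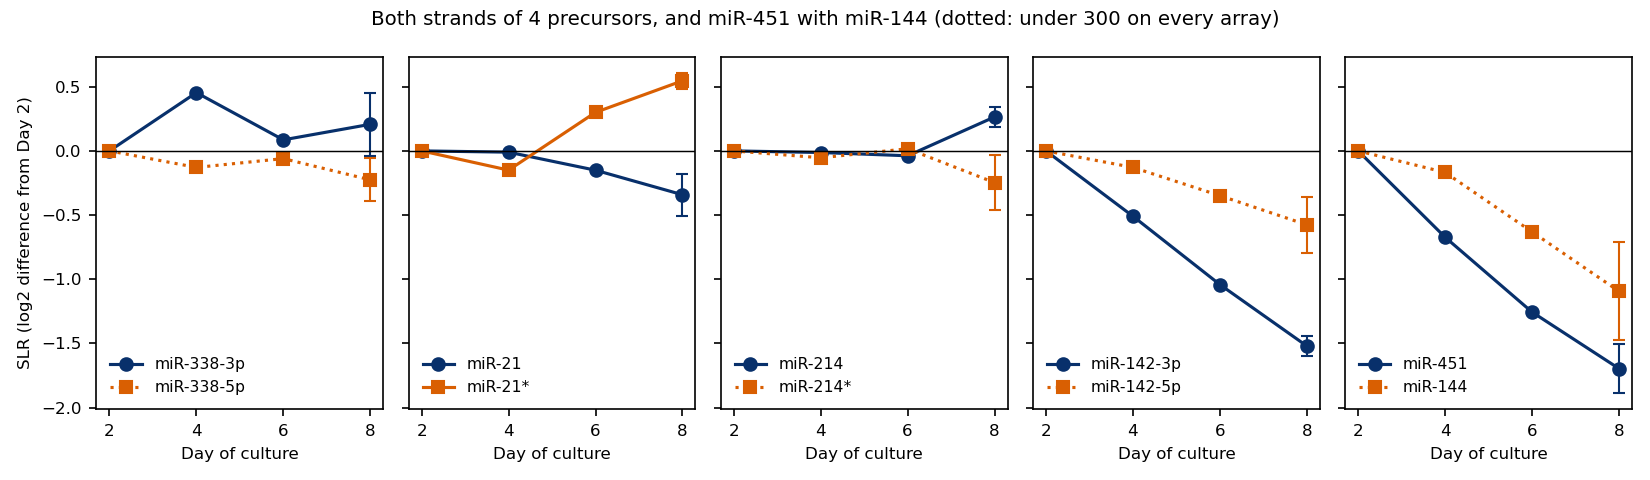
SLR (log2 difference from Day 2, set to 0 on Day 2) of both strands of 4 precursors and of miR-451 with miR-144 against the day of culture, dotted for strands under 300 on every array, with bars for the spot SD on Day 8. miR-21 and miR-21* part to -0.34 and 0.55, and miR-142-3p and miR-451 go down from day to day. miR-142-3p and miR-451 were under 300 on Days 6 and 8, where their lines have no measured size. The same holds for miR-144, within the background on those days, and for miR-142-5p, within it on all days.

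Further miRNAs of each lineage were read from lists matched by exact name. Over the whole array 40.7% of mouse probes were detected, and 9.55% of the 419 detected fell and 3.58% rose by the trend test. The lists include the members described above, so a member counted again in its list is no further result. Summed signals below are not scaled between arrays and include probes at background. Of 4 oligodendrocyte names 2 were detected, both described above, and 0 passed the trend test. The summed signal of that list ran from 1331 on Day 6 to 2297 on Day 4. Of 12 astrocyte or mesenchymal names 3 were detected (miR-21, miR-214 and miR-21*) and 0 passed, with a summed signal from 2731 on Day 6 to 4407 on Day 8. In that sum miR-21* alone gave 1623 on Day 6 and 2858 on Day 8. The probe of miR-199a-3p and miR-199b entered it under both names. miR-145, which is encoded beside miR-143, miR-199a-3p and miR-199b, which share 1 probe, and miR-199b* were within the range of the negative controls on each day. miR-145* lay above it on 3 days at signals from 94.8 to 143, and the Day 8 value of 112 for miR-199a-5p was under the highest negative control probe.

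Of 6 leukocyte or microglial names, 1 was detected and fell, miR-142-3p. miR-223 of myeloid cells, and the immune-induced miR-146a and miR-155, did not rise above the highest negative control probe on any day. miR-150, a miRNA of lymphocytes, did so on every day with signals from 177 to 285 and a Day 8 SLR of 0.08 ± 0.19. The summed signal of the list went from 791 on Day 2 to 485 on Day 6 and 498 on Day 8. Of 4 erythroid names on the array, 1 was detected and fell, miR-451. miR-486, also abundant in red cells, had signals from 132 to 193, above the negative control probes on all days. The median mouse probe of each array read from 118 to 164. On Day 2 the signal of miR-486, 172, was under the highest negative control spot, 197. The Day 8 SLR of miR-486 was -0.08 ± 0.14, with overlapping spots. The summed signal of this list was 947, 765, 362 and 305 on Days 2, 4, 6 and 8. In it miR-451 gave 632 on Day 2 and 106 on Day 8, and miR-144 gave 204 and 36.0. miR-486 gave 172 and 167, and miR-144* was at background. Neither strand of the endothelial miR-126 was detected, with a summed signal from 107 to 155. miR-126-3p exceeded the highest negative control probe on Day 4 (135 against 123) and Day 6 (99.4 against 93.9). miR-126-5p did not exceed it on any day. All 3 neuronal names (miR-124, miR-9 and miR-128) were detected on all arrays with summed signals from 130199 to 133423, of which miR-124 and miR-9 were saturated, so that a change of these could not be read. The part of cell makeup in the changes of miR-142-3p and miR-451 was not tested.

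The profile over the 4 arrays was compared with that of the other 418 detected miRNAs, as the root mean square difference of log2 values after each was centred on its mean. Closest to miR-142-3p were miR-17 (0.05), miR-20a (0.05) and miR-106a (0.06), whose Day 8 SLR was -1.46, -1.54 and -1.37. Closest to miR-451 were miR-20a (0.07), miR-25 (0.07) and miR-142-3p (0.08). These distances rest in part on the dim signals of both blood miRNAs on Days 6 and 8. miR-219-5p was closest to miR-130a (0.02), miR-21 to miR-125b-2-3p (0.01), miR-214 to miR-378 (0.03) and miR-338-3p to the probe shared by miR-466a-5p and miR-466p-5p (0.06), with Day 8 SLRs of -0.43, -0.34, 0.27 and 0.07.

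The direction of the main differences was followed through 11 ways of background correction and scaling. miR-142-3p stayed below -0.6 on Days 6 and 8 in all 11, with Day 8 values from -2.61 to -1.43, and so did miR-451, from -2.77 to -1.61. Both probes were under 300 on Day 6 and within the background on Day 8. These values thus give a direction from a measured Day 2 signal and no size. miR-219-5p (-0.76 to -0.32) and miR-21 (-0.79 to -0.30) were below 0 on Day 8 in all 11 and beyond -0.6 in 3. miR-338-3p was above 0 on Day 8 in all 11 (0.10 to 0.53), but on Day 6 its sign changed between settings (-0.49 to 0.29). miR-143 ran from -1.27 to 0.17 on Day 8 and miR-144 from -1.98 to -0.89, and nothing is read from either, since miR-143 was at background on all days and miR-144 on Day 8.

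**Figure D5:**
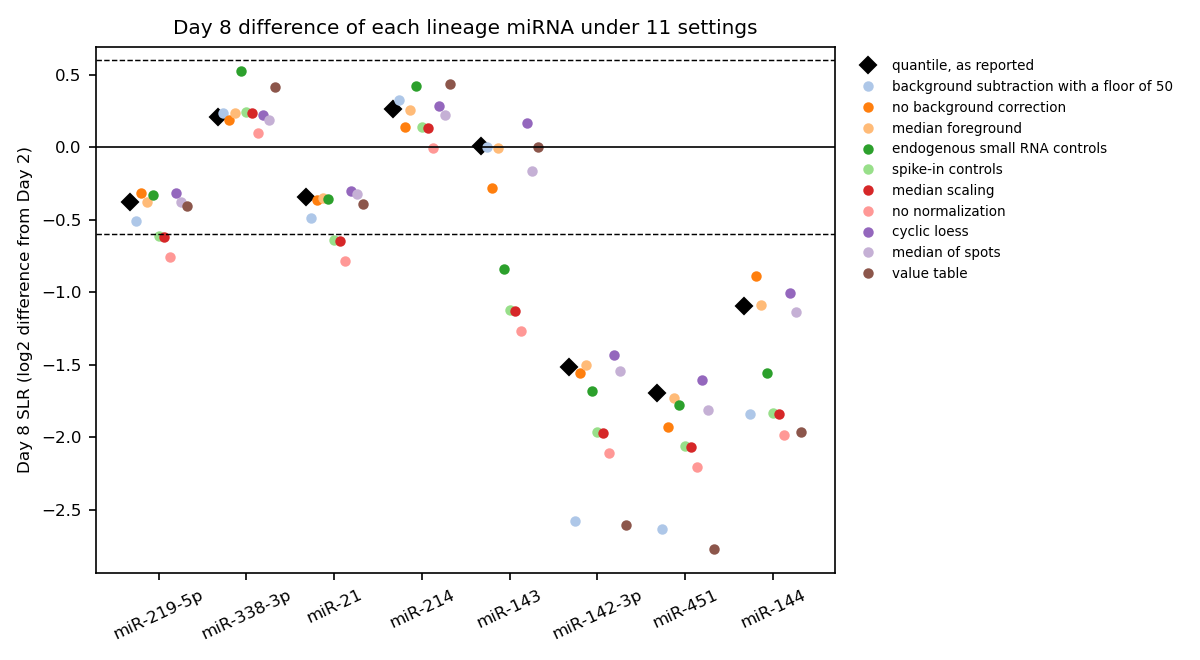
Day 8 SLR (log2 difference from Day 2) of the 8 miRNAs under 11 settings of background correction and scaling, with dashed lines at 0.6 and -0.6 and the reported setting as a black diamond. All points of miR-142-3p and miR-451 lie below -0.6. On Day 8 these probes, miR-143 and miR-144 were within the background, so the size of their values was not measured.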

How the data were processed

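The deposited scanner files give, per the file headers and in linear scanner units without normalization between arrays, the intensity of 12312 spots per array and the percent of saturated pixels. The authors labelled pooled RNA with Hy3, hybridised it on LNA capture arrays of miRBase 16.0 content, scanned them on an InnoScan 700 and quantified spots with Mapix 4.5.0 with local background. The deposited value table equals the spot mean of median foreground minus background.

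The mean foreground was corrected with normexp (offset 50) on all spots, quantile-normalized over miRNA spots in limma 3.58.1 under R 4.3.3, and averaged over spots. The offset compresses ratios of dim probes. Spots marked as not found were kept. SLRs are differences from Day 2, called beyond 0.6, and with 1 array per day they have no test. The trend (lmFit, eBayes, two-sided, Benjamini-Hochberg at 0.05 over 419 miRNAs) has 2 residual degrees of freedom, and its p-values describe how closely 4 pools follow a line. The number of arrays limits the precision.

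A fold with the dim array under 300 is a bound: the brighter level against the higher of the dim level and the lowest normalized level there of any probe whose spots all reached 300. Named were the 8 members, the lineage lists and partner strands, and the 3 nearest profiles of each detected member, of which the closest is printed for some. The members and lists were chosen with earlier results of these data known. Names are of the array design. Current RefSeq names were paired by hand (miR-451 with miR-451a, miR-21 with miR-21a-5p, miR-219-5p with miR-219a-5p), and gene overlaps are of whole spans.

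Alternatives comprised plain subtraction floored at 50, uncorrected or median foreground, scaling to 15 endogenous controls, to 33 spike-in controls or to the array median, cyclic loess or none, spot medians, the value table, other detection rules and filters, and leaving out each day.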

Additional observations from a re-analysis of the deposited data

Results flagged for a closer look

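The scanner also read each spot in a red channel, in which no dye was used. In that channel miR-214 read 6.10 on Day 2, against 5.93 for the highest negative control probe, and 6.63 on Day 8, against 5.92, where 1 spot of 18.5 stood apart. miR-144 read 8.18 on Day 4, against 6.06. These are a few scanner units, beside green signals of 548 and 738 for miR-214 and 194 for miR-144. The other members, and miR-214 and miR-144 on the remaining days, did not exceed the highest negative control probe of their array in red.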

How the results depend on the processing

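No paired analysis was possible because each day has 1 array and the labels carry no replicate numbers. Members beyond 0.6 on Day 4 numbered 2 with a floor of 50, median scaling, no normalization or the value table, 3 with spike-in controls and 0 with cyclic loess. With endogenous controls the single one was miR-338-3p, higher, as was 1 of the 2 in the value table. Of all 419 detected miRNAs on Day 4, 69 were lower and 5 higher with spike-in controls. These counts were 16 and 47 with a floor of 50, 16 and 24 with median scaling, and 18 and 21 with no normalization. They were 9 and 68 with the value table, 4 and 26 with cyclic loess, and 6 and 45 with endogenous controls. On Days 6 and 8 the members beyond 0.6 numbered 5 and 4 with spike-in controls and 5 and 4 with no normalization, and 4 on Day 8 with median scaling. With spike-in controls 221 of all 419 were lower and 9 higher on Day 6, and 58 and 41 on Day 8. With no normalization 238 were lower and 8 higher on Day 6, and 81 and 28 on Day 8. Median scaling gave 59 lower and 40 higher on Day 8. With at least 300 required on all 4 arrays, 2 members were detected, 0 were beyond 0.6 on each day and 0 were called by the trend, since miR-142-3p and miR-451 were then not tested. The trend called 4 members with median scaling (adding miR-21, adjusted p = 0.0299, and miR-219-5p, adjusted p = 0.0411, in ranges over the alternatives of 0.0299 to 0.773 and 0.0411 to 0.803), 3 with no filter and 0 with the value table (slopes of -0.46 for miR-142-3p and -0.49 for miR-451). Leaving out each day in turn gave 0 to 2 members, with 0 when Day 8 was left out. The slopes of miR-338-3p and miR-214, which were not called, turned to -0.029 and -0.031 with no normalization. Leaving out each day gave slopes from -0.062 (without Day 2) to 0.033 for miR-338-3p and from -0.0095 (without Day 8) to 0.069 for miR-214. The cause was not tested. Over all miRNAs the trend called 40 lower and 15 higher, as against 22 and 53 with endogenous controls, 3 and 4 with spike-in controls, 54 and 27 with median scaling, 21 and 4 with no normalization, 45 and 41 with cyclic loess, 33 and 8 with a floor of 50, 26 and 12 with no filter, 0 and 0 with the value table, and 66 and 45, 17 and 7, 14 and 5, and 0 and 0 without Days 2, 4, 6 and 8. The median SLR of detected miRNAs shifted by up to 0.18 with endogenous controls (Days 4 and 8), to -0.62 with spike-in controls, -0.65 with no normalization and -0.40 with the value table on Day 6. An SLR of a signal within the negative control range is printed as computed and has no measured size.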
